A study of Rattus norvegicus with 24 samples.

Results

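The genes described here are 10 members of the myostatin, activin and follistatin axis, namely Mstn, Gdf11, Inhba, Fst, Fstl1, Fstl3, Acvr2a, Acvr2b, Smad3 and Smad7. They were taken by gene symbol from the 13458 symbols of the expression table, each symbol had 1 row, and all 10 were found. The tibialis anterior, a dorsiflexor of the ankle, was sequenced (mRNA-seq) from both hind limbs of 12 male Fischer 344 rats aged 23 ± 1 months, which gave 24 limbs. Tetrodotoxin (TTX), a sodium channel blocker, was delivered to the left common peroneal nerve of 9 rats to silence the muscle, and the untreated right limbs of these 9 rats were the control. The left limbs formed 3 groups of 3: atrophy (6 to 7 d of TTX), recovery (the same block, then 9 d without TTX) and repeated atrophy (the same block and recovery, then another 5 to 6 d of TTX). A further 3 rats were sham-operated and received no TTX, and 1 of them was taken at each of the 3 time points, so the left and right sham groups of 3 limbs each span all times. All animals were old and of 1 sex, the control limb belonged to the same animals as the treated limbs. Each treated group had 3 animals. Unless limbs were paired by animal, p-values for these groups rest on the spread of limbs pooled over control and treated groups. Both limbs of a rat then enter as if independent.

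Myostatin and GDF11 are closely related secreted ligands of the TGF-beta superfamily, and activin A is a dimer of the product of Inhba. They bind the type II receptors ACVR2A and ACVR2B, which leads to phosphorylation of SMAD2 and SMAD3, and this signal restrains muscle growth. Follistatin (Fst) and FSTL3 bind the ligands outside the cell and block them, and SMAD7 is an inhibitory SMAD that the signal itself induces.

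Depth, inferred from the commonest lowest value, lay between 18861092 and 30893661 reads per limb, so that 1 read was worth 0.0324 to 0.0530 CPM (counts per 1000000 counted reads). The summed level of 6 muscle fibre markers (Acta1, Ckm, Mylpf, Tnnt3, Myh4, Myh1) was 152184 to 212658 CPM in control limbs, 65636 to 162274 after atrophy, 171518 to 184145 after recovery and 92316 to 130154 after repeated atrophy. In CPM, the median log2 fold change of all 14031 rows tested was 0.22 in the atrophy, 0.02 in the recovery and 0.20 in the repeated atrophy comparison with control. Values were therefore also rescaled between limbs by trimmed mean ratios, which brought the median to −0.01 after repeated atrophy, and are given beside the CPM results. In whole muscle, fewer cells of a type and less RNA per cell cannot be told apart.

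Per kilobase of transcript, Smad3 stood highest in control limbs at 25.2 ± 4.04 CPM per kb (mean ± SD, n = 9). Fstl1 (6.11 ± 2.02), Fst (3.66 ± 1.59), Mstn (3.07 ± 1.31) and Smad7 (2.60 ± 0.942) followed in CPM per kb, and from Fst to Smad7 each mean lay within 1 SD of the next. Gdf11 (1.41 ± 0.366), Acvr2a (1.40 ± 0.444), Fstl3 (1.03 ± 0.623) and Acvr2b (0.516 ± 0.240) formed the lower end of this order, in which each mean also lay within the larger SD of it and the next. Inhba was at 0 in 8 of the 9 control limbs. The lengths are those listed in the table, which for Mstn (1131 bases) and Fstl3 (771 bases) are the shortest of the 10, and the order rests on them.

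**Figure D1:**
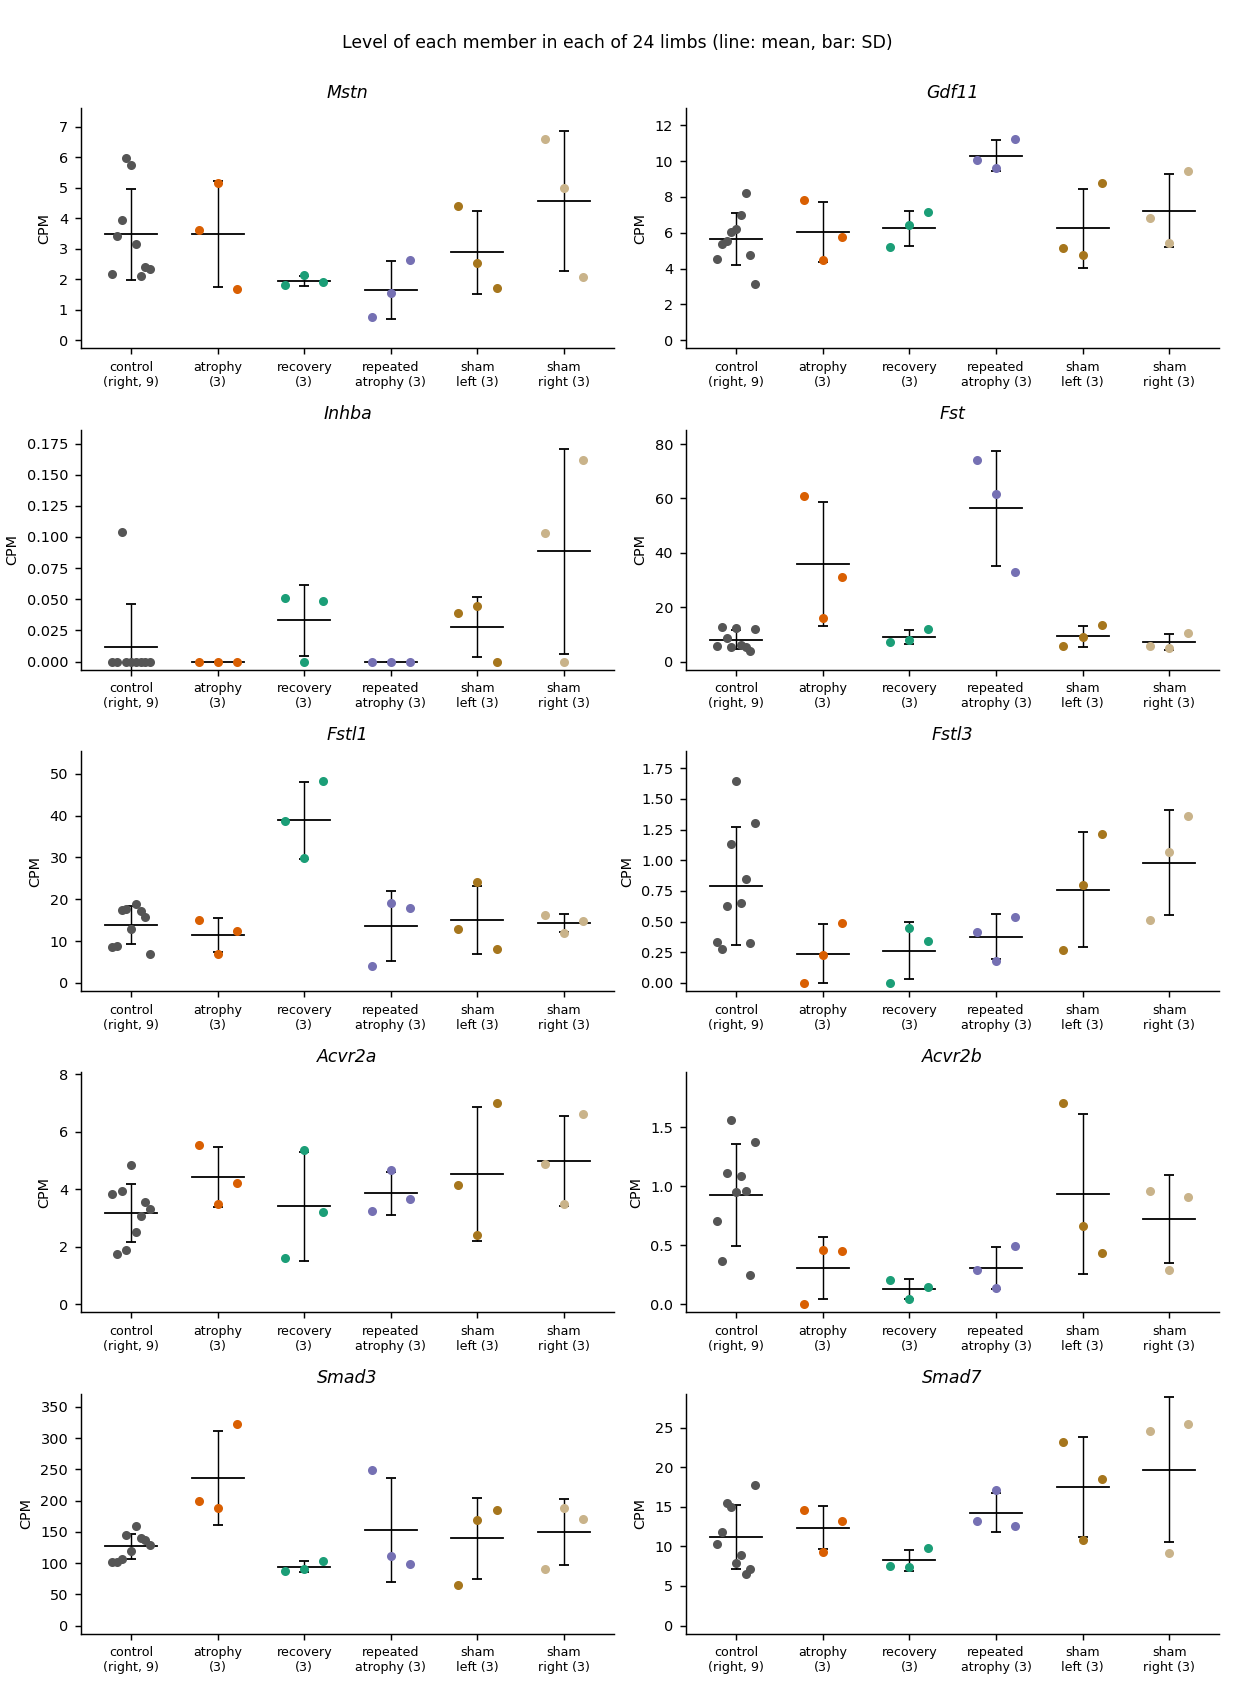
CPM of each member (vertical axes, linear) in 9 control limbs, 3 limbs each of atrophy, recovery and repeated atrophy, and the 3 left and 3 right sham limbs (horizontal axes). Each point is 1 limb, lines are means and bars SD. Fst stood above all control limbs after atrophy and repeated atrophy, Fstl1 after recovery, Gdf11 after repeated atrophy and Smad3 after atrophy. For each of these members at least 1 left sham limb also stood above all control limbs. The share of all rows that lie apart from control in this way was not counted.

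A member was called a differentially expressed gene where limma on log2(CPM + 1) gave a fold change of 1.2 or more together with a p of 0.05 or less after Benjamini-Hochberg adjustment over all rows. All 10 members passed the filter on low values, Inhba with only 3 of the 18 limbs of the TTX animals above 0. After atrophy 2 members were higher than in control (Fst and Smad3), against 20.3% of all rows, and 1 was lower (Acvr2b), against 2.33%. After recovery 1 was higher (Fstl1), against 4.4%, and 1 lower (Acvr2b), against 3.33%. After repeated atrophy 2 were higher (Fst and Gdf11), against 28.1%, and 1 was lower (Acvr2b), against 6.24%. The median log2 fold change of the 10 members was 0.04, −0.16 and 0.07 in these comparisons. The shares of all rows moved with single animals. Of all rows, 22.6% were called in either direction after atrophy, which became 0.00715% (1 row of 13993, with 2867 at an unadjusted p under 0.05 in limma) without atrophy animal 1, 34.6% without atrophy animal 2, 13.1% without atrophy animal 3 and 14.8% without recovery animal 1. The 7.73% called for recovery became 1.32%, 3.27% and 3.84% without recovery animals 1, 2 and 3, and 4.45% without repeated atrophy animal 2. For repeated atrophy the 34.3% became 18.4% without repeated atrophy animal 2 and lay between 25.3% and 37.6% without any other animal.

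The rescaled values called Fst and Acvr2b after atrophy (background 9.68% of rows in either direction), Fstl1 and Acvr2b after recovery (12.1%), and Fst, Mstn and Acvr2b after repeated atrophy (25.2%). With the animal as a block, so that each left limb was compared with the right limb of the same rat, no member was called after atrophy or recovery, where 0% and 0.0641% of all rows passed (2678 and 2521 rows at an unadjusted p under 0.05). The block called Fst, Mstn and Acvr2b after repeated atrophy, where 27.1% of rows passed. In the plot of fold changes under these fits, Fst after repeated atrophy was the member farthest from 0.

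**Figure D2:**
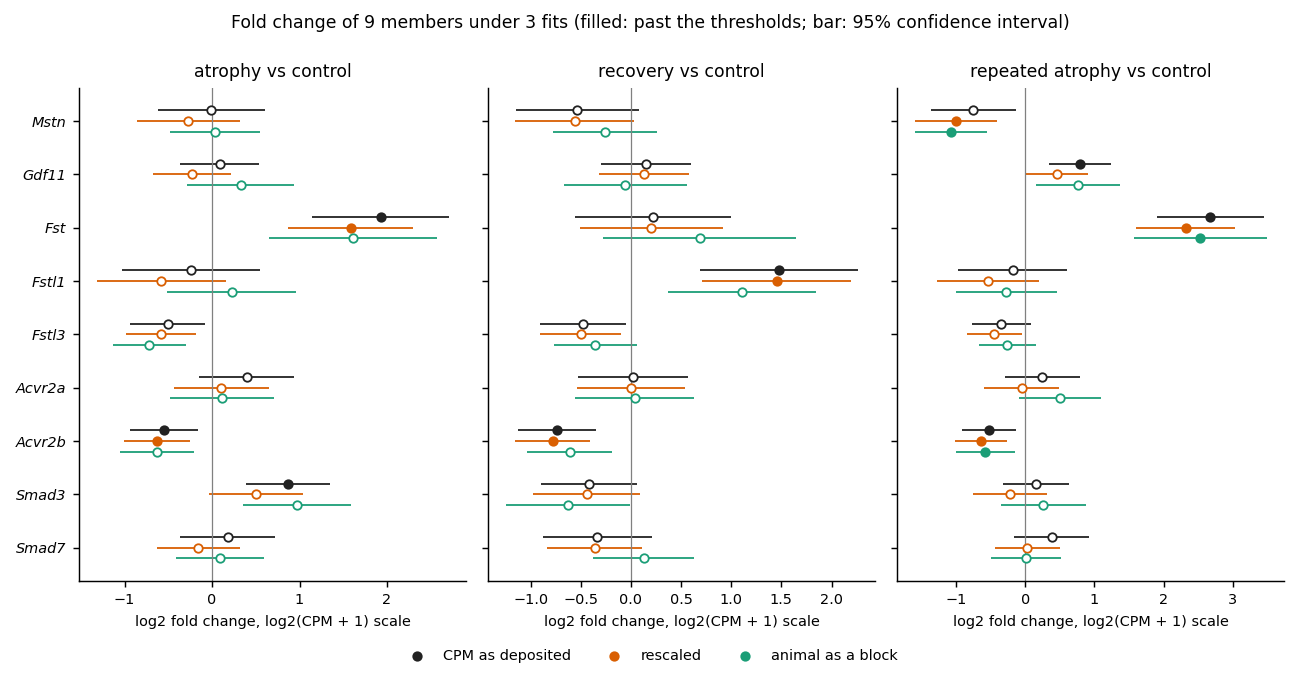
Log2 fold change (horizontal axes, log2(CPM + 1) scale) of 9 members against control after atrophy, recovery and repeated atrophy, with CPM as deposited (black), after rescaling (orange) and with the animal as a block (green). Bars are 95% confidence intervals and filled points passed both thresholds. Inhba is left out because it was at or near 0 throughout.

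Promoter sequences from RefSeq (build GRCr8) were matched by symbol to 8 of the 10 members, all but Mstn and Fst. The 250 bases before the annotated start are shown for the 4 members in that table that were called against control, because these carry the calls described here, some of which were lost under other settings. Capitals mark the GC box GGGCGG and the TATA box TATAAA on either strand. Adjacent GC boxes may overlap.
Gdf11, chr7:1905223-1905472, minus strand: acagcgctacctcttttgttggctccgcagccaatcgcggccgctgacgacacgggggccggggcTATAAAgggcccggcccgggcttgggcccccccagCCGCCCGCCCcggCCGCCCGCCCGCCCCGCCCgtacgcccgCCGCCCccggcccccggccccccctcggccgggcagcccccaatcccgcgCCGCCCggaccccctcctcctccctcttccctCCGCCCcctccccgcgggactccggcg
Fstl1, chr11:76454054-76454303, minus strand: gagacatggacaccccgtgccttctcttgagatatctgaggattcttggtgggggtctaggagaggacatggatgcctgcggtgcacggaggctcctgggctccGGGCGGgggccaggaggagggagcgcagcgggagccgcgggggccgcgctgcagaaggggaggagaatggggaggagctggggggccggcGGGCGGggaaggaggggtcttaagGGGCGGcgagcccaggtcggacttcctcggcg
Acvr2b, chr8:128016513-128016762, plus strand: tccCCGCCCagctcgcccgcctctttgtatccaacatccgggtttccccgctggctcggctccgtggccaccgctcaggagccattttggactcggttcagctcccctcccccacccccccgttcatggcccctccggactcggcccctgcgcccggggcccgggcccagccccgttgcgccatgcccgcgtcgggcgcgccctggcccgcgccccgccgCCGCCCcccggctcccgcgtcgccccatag
Smad3, chr8:73132325-73132574, minus strand: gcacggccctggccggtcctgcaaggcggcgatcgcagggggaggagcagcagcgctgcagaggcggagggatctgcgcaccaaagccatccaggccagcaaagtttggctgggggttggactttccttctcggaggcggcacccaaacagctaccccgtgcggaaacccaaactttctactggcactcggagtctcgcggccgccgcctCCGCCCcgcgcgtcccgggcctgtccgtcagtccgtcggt

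These windows were rich in G and C, at 81.2% for Gdf11, 76.8% for Acvr2b, 70% for Fstl1 and 68.4% for Smad3. The median of all promoters was 51.2%. Among the members in that table that were not called, Smad7 was at 78% with 2 GC boxes and Fstl3 at 68.8% with 4. Acvr2a was at 49.2% and Inhba at 43.6%, with 0 GC boxes each. The letters GGGCGG occurred 9 times upstream of Gdf11, 3 times for Fstl1, 2 times for Acvr2b and 1 time for Smad3, and 30.5% of the 33469 promoters of the same length held it. TATAAA occurred 1 time, in Gdf11, and was held by 12.9% of promoters. The E box CANNTG (65.5% of promoters), the SMAD box CAGAC (42.9%) and the FoxO site GTAAACA (3.21%) were not found in these 4 windows on either strand.

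Follistatin (Fst, chr2:46123260-46130209, rn7, minus strand) rose after both periods of disuse, and it did not pass the test after recovery. The CPM of Fst was 4.00 to 12.8 in the 9 control limbs, with a median of 6.24. It was 60.8, 15.9 and 31.1 in the 3 atrophy limbs, 7.34, 7.86 and 12.1 in the recovery limbs and 74.2, 61.8 and 33.0 in the repeated atrophy limbs. All 6 limbs taken during disuse lay above every control limb, whereas all 3 recovery limbs lay within the control range. The share of all rows that lie apart from control in this way was not counted, here or for the genes below. The mean level was 4.46-fold that of control after atrophy and 6.98-fold after repeated atrophy.

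For Fst the first period gave a log2 fold change of 1.93 (SE 0.371, adjusted p = 0.00632), recovery 0.22 (adjusted p = 0.758) and the repeated period 2.68 (SE 0.371, adjusted p = 0.000103). Rescaled, it was 1.58 after atrophy (adjusted p = 0.0133) and 2.32 after repeated atrophy (adjusted p = 0.000148). The call after atrophy was lost when limbs were paired by animal (1.61, adjusted p = 0.157) and without atrophy animal 1 (1.41, adjusted p = 0.130), a fit in which 1 row in all was called. After repeated atrophy Fst passed in all 12 alternatives that kept every animal and in all 9 that left an animal out.

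Fst fell from atrophy to recovery by 1.71 on the log2 scale (adjusted p = 0.0189) and rose from recovery to repeated atrophy by 2.46 (adjusted p = 0.00184). Under the block these adjusted p-values were 0.718 and 0.166. The fall was also lost without atrophy animal 1 (adjusted p = 0.101), recovery animal 1 (0.0855) or recovery animal 2 (0.0815), where the share of all rows called went from 17.9% to 7.31%, 3.18% and 2.84%. Repeated atrophy and atrophy differed by 0.75 (95% confidence interval −0.20 to 1.71, adjusted p = 0.912), a comparison in which 0.0356% of all rows and no member were called, while at an unadjusted p under 0.05 the fit held 884 rows. Within animals, the left limb exceeded the right in 3 of 3 atrophy, 3 of 3 recovery and 3 of 3 repeated atrophy animals, by 0.32 to 3.20, 0.20 to 1.39 and 2.43 to 2.72 on the log2(CPM + 1) scale. The repeated atrophy animals were thus close to each other, and the atrophy animals were not.

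The 3 rows whose log2 level was most like that of Fst over the 18 limbs of the TTX animals were Lztfl1 (Pearson r = 0.975), Morf4l2 (0.974) and Hnrnpa3 (0.971), out of 6486 rows compared. These limbs share animals, group differences and scaling, so these values are a description. The summed CPM of the muscle stem cell markers Pax7 and Myf5 was 1.98 to 11.7 in control limbs, 7.38 to 86.1 after atrophy, 7.82 to 20.8 after recovery and 33.1 to 61.9 after repeated atrophy, and it reached 68.7 in the left sham limbs. Of the pair, Myf5 passed after atrophy (log2 fold change 2.63, adjusted p = 0.00651, lost under the block at 0.151) and repeated atrophy (3.05, adjusted p = 0.000415), and Pax7 did not. The part of stem cell number in the Fst result was not tested.

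Follistatin-like 1 (Fstl1, chr11:62895401-62948582, rn7, minus strand), a secreted glycoprotein of the follistatin domain family, rose only after recovery among the comparisons with control. Its CPM was 6.98 to 18.8 in control limbs, with a median of 15.7. The recovery limbs held 38.7, 29.8 and 48.2 CPM, the atrophy limbs 15.1, 6.95 and 12.4 and the repeated atrophy limbs 4.06, 19.1 and 17.9. The recovery limbs lay above all 9 control limbs, and the limbs of the other groups overlapped with control.

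Against control, Fstl1 in recovery limbs had a log2 fold change of 1.47 (SE 0.375, adjusted p = 0.0239), or 1.45 when rescaled (adjusted p = 0.0144). It was 1.71 for recovery against atrophy (adjusted p = 0.0193) and −1.65 for repeated atrophy against recovery (adjusted p = 0.0137). With the animal as a block these adjusted p-values were 0.164, 0.659 and 0.171. The call against control was lost without any 1 of the recovery animals (adjusted p = 0.109, 0.0537 and 0.103), although the left limb was higher in 3 of 3 recovery animals, by 0.76 to 1.56. The rise over atrophy was lost without any 1 recovery animal or without atrophy animal 2 (adjusted p = 0.0524 to 0.0705). The fall into repeated atrophy was lost without repeated atrophy animal 1 (adjusted p = 0.0651) or recovery animal 3 (adjusted p = 0.0510).

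Fibroblast markers (Pdgfra, Col1a1, Col3a1, Dpt) moved with Fstl1. Their summed CPM was 76.5 to 311 in control limbs, 713 to 1460 after recovery, 83.8 to 329 after atrophy and 127 to 265 after repeated atrophy, and 3 of the 4 passed after recovery, namely Col1a1 (3.07), Col3a1 (3.45) and Dpt (1.38). Under the block none of these passed (adjusted p = 0.107, 0.0798 and 0.121). Macrophage and leukocyte markers (Ptprc, Cd68, Adgre1, Csf1r) summed to at most 59.9 CPM in control and to 48.8 to 99.6 after recovery, with 2 of 4 called, Cd68 (1.41) and Adgre1 (1.62), and none under the block (adjusted p = 0.208 and 0.196). The rows most like Fstl1 were Myadm (r = 0.959), Col14a1, a fibril-associated collagen (0.951), and Ptgfrn (0.908). The part of these cells in the Fstl1 result was not tested.

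Follistatin-like 3 (Fstl3), a binder of activin and myostatin, was low throughout. It lay between 0.276 and 1.64 CPM in control limbs, at 0, 0.231 and 0.488 CPM in atrophy limbs, at 0, 0.450 and 0.340 in recovery limbs, and at 0.419, 0.177 and 0.534 in repeated atrophy limbs. Its log2 fold changes of −0.51, −0.48 and −0.35 did not pass (adjusted p = 0.0788, 0.149 and 0.209).

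Myostatin (Mstn, chr9:48453982-48458810, rn7, minus strand) had its lowest group mean after repeated atrophy. Its CPM was 2.10 to 5.97 in control limbs, with a median of 3.16. The atrophy limbs held 3.60, 5.15 and 1.69 CPM, the recovery limbs 1.82, 2.13 and 1.90 and the repeated atrophy limbs 0.754, 1.56 and 2.63. After repeated atrophy 2 of 3 limbs lay below every control limb, as did 2 of 3 after recovery and 1 of 3 after atrophy, and the groups overlapped in each case. Both limbs of sham animal 3, taken at the repeated atrophy time without TTX, also lay below every control limb. They held 1.72 CPM on the left and 2.07 on the right.

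Its log2 fold change after repeated atrophy was −0.75 (SE 0.292, 95% confidence interval −1.36 to −0.14, adjusted p = 0.0537), which missed the threshold. It passed in 9 of the 11 alternatives that kept every animal, among them rescaling (−1.01, adjusted p = 0.0137), the block by animal (−1.07, adjusted p = 0.00956) and all 12 right limbs as control (−0.82, adjusted p = 0.0450). The block with rescaling, added after seeing the data, was 1 of these. Mstn passed in only 2 of the 9 fits that left an animal out. These were without repeated atrophy animal 3 (−0.92, adjusted p = 0.0389) or atrophy animal 3 (−0.80, adjusted p = 0.0313). It was weakest without repeated atrophy animal 1 (−0.48, adjusted p = 0.307). In all 3 repeated atrophy animals the left limb held less Mstn than the right, by 0.94 to 1.33 on the log2(CPM + 1) scale. In the 3 sham animals the left limb was also the lower, by 0.18 to 0.76, and the difference between these 2 left-right gaps was −0.59 (95% confidence interval −1.27 to 0.09, adjusted p = 0.250). After atrophy and recovery the fold changes were −0.01 (adjusted p = 0.987) and −0.54 (adjusted p = 0.267). Repeated atrophy differed from recovery by −0.22 (adjusted p = 0.693) and from atrophy by −0.74 (adjusted p = 0.795). The rows most like Mstn were Mapk14, the p38 alpha kinase (r = 0.822), Mxi1, an antagonist of MYC (0.796), and Zfp503 (0.769).

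Gdf11 (chr7:1311732-1320726, rn7, minus strand), the closest relative of myostatin, was higher after repeated atrophy in CPM, and the call did not hold after rescaling. Its CPM was 3.16 to 8.22 in control limbs, with a median of 5.54, and 10.0, 9.61 and 11.3 in the repeated atrophy limbs, which all lay above the control range. It was 7.82, 4.50 and 5.76 after atrophy and 5.21, 6.43 and 7.15 after recovery, all within that range. Both limbs of sham animal 3, taken at the repeated atrophy time without TTX, also lay above that range. They held 8.79 CPM on the left and 9.45 on the right. The log2 fold change after repeated atrophy was 0.80 (SE 0.214, adjusted p = 0.00802), and it passed in all 9 fits that left an animal out.

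The call on Gdf11 held in 7 of the 11 alternatives that kept every animal. It was lost after rescaling (0.45, adjusted p = 0.130) and under the block (0.76, adjusted p = 0.0635), although all 3 left limbs exceeded their right limbs by 0.70 to 0.80. Against atrophy and recovery the differences were 0.71 (95% confidence interval 0.16 to 1.26, adjusted p = 0.587) and 0.64 (adjusted p = 0.0752). The rows most like Gdf11 were Timp2, an inhibitor of matrix metalloproteinases (r = 0.843), Stard8 (0.819) and Smpd4 (0.815).

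Inhba, which encodes the subunit of activin A, was at 0 in 8 of 9 control limbs, in 3 of 3 atrophy and in 3 of 3 repeated atrophy limbs, and in 1 of 3 recovery limbs, where the other 2 held 1 read each. The highest value in any limb was 0.162 CPM, in a right sham limb. No fold is given, and a difference was not detectable at this depth.

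**Figure D3:**
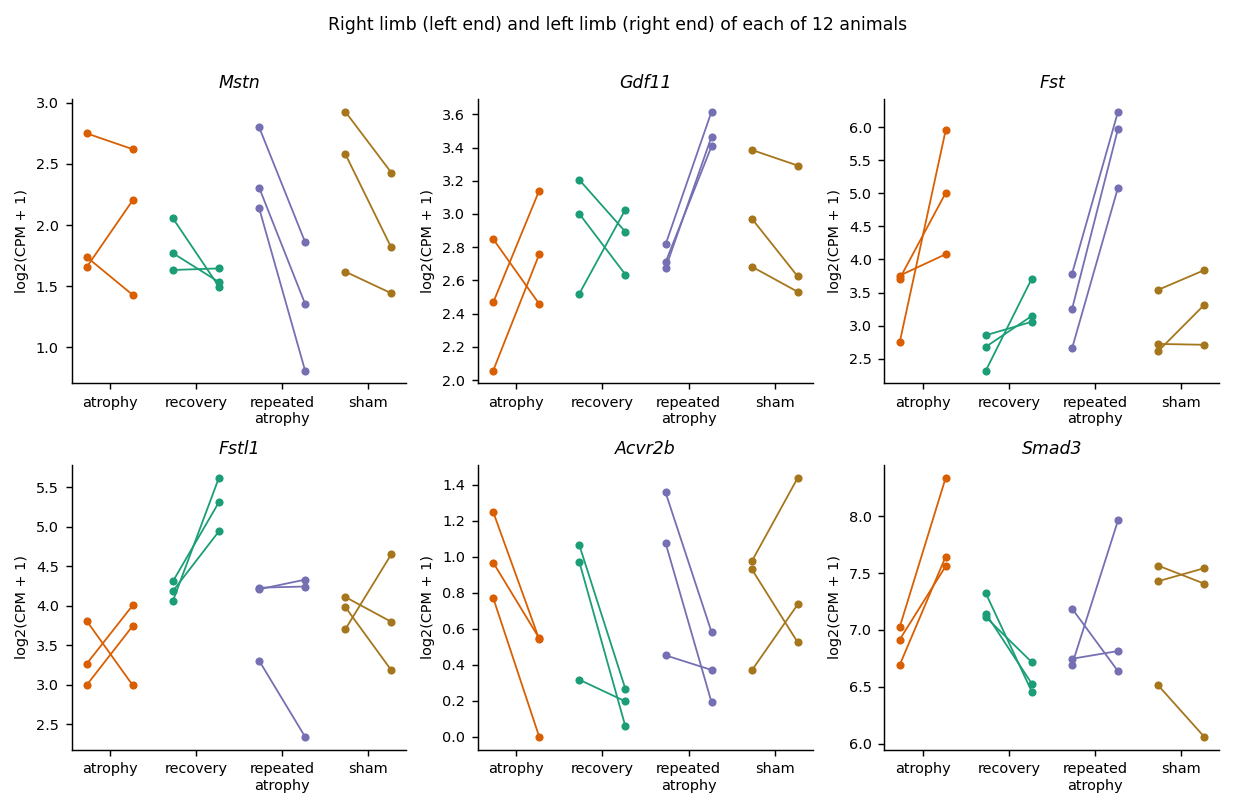
Log2(CPM + 1) of 6 members in the right and left limb of each of the 12 animals, joined by a line and grouped by the treatment of the animal (horizontal axes). In all 3 repeated atrophy animals Fst and Gdf11 were higher and Mstn lower on the left, and in all 3 recovery animals Fstl1 was higher and Smad3 lower on the left.

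The ratio of Mstn to Fst within a limb joins the ligand and its antagonist, and it is given as a description. On the log2 scale of CPM + 1 it was −0.99 ± 0.605 in the 9 control limbs, with a range of −1.97 to 0.14. The atrophy limbs were at −3.75, −1.46 and −3.58, the recovery limbs at −1.56, −1.50 and −2.18, and the repeated atrophy limbs at −5.42, −4.62 and −3.23. All 3 repeated atrophy limbs and 2 of the 3 atrophy limbs were below the lowest control limb, as were 1 recovery limb (−2.18) and 1 left sham limb (−2.40). The other sham limbs lay between −1.92 and 0.20.

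The log2 ratio of Mstn to Gdf11 averaged −0.61 ± 0.480 (SD) in control, −0.70 ± 0.773 in atrophy, −1.29 ± 0.181 in recovery and −2.15 ± 0.459 in repeated atrophy limbs. The 3 repeated atrophy limbs, at −2.66, −2.05 and −1.75, were below the lowest control limb at −1.57. Both limbs of sham animal 3, at −1.85 on the left and −1.77 on the right, were below it too, and overlapped with the repeated atrophy limbs. Both ratios depended on the pseudocount. With 0.1 in place of 1, Mstn to Gdf11 averaged −0.75 in control and −2.72 in repeated atrophy limbs, and with 10 it averaged −0.22 and −0.80. Mstn to Fst averaged −1.18 and −5.09 with 0.1, and −0.41 and −2.46 with 10. The 3 repeated atrophy limbs were below every control limb with each pseudocount.

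**Figure D4:**
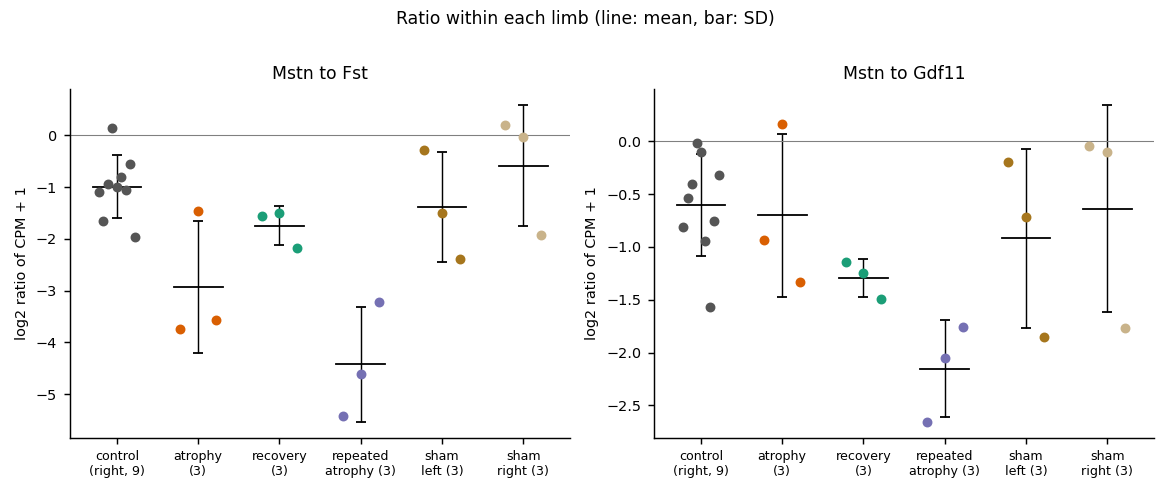
Log2 ratio of CPM + 1 (vertical axes) of Mstn to Fst and of Mstn to Gdf11 in each limb by group. Points are limbs, lines means and bars SD, and the repeated atrophy limbs hold the lowest mean in both panels, at −4.42 and −2.15.

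Of the type II receptors, Acvr2b (chr8:119139049-119170460, rn7, plus strand), the high affinity receptor for myostatin, was lower in all 3 comparisons with control. Its CPM was 0.245 to 1.56 in control limbs, with a median of 0.958. The atrophy limbs held 0, 0.461 and 0.455 CPM, the recovery limbs 0.202, 0.0409 and 0.146 and the repeated atrophy limbs 0.293, 0.142 and 0.496. All 3 recovery limbs lay below every control limb, and after atrophy and repeated atrophy 1 of 3 did. The treated limbs rest on few reads, since 1 read was worth up to 0.0530 CPM.

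Acvr2b had log2 fold changes of −0.55 (SE 0.186, adjusted p = 0.0411), −0.74 (adjusted p = 0.0228) and −0.53 (adjusted p = 0.0336) in the order atrophy, recovery, repeated atrophy, on a scale that understates changes of so low a gene. Rescaled, the 3 values were −0.63, −0.78 and −0.64 (adjusted p = 0.0338, 0.0111 and 0.0141). Under the block the adjusted p was 0.175, 0.177 and 0.0465, so that only the call after repeated atrophy held. Without atrophy animal 1 or 3, repeated atrophy animal 2 or 3, or recovery animal 1 or 2 the call after atrophy ended (adjusted p = 0.0602 to 0.319). Without recovery animal 1 or 2 that after recovery ended (0.106 and 0.120), and without these or repeated atrophy animal 2 or 3 that after repeated atrophy ended (0.0529 to 0.216). With a pseudocount of 10 the fold was under 1.2 in all 3 comparisons, with 0.1 the call after repeated atrophy was lost (adjusted p = 0.0753), and with 12 right limbs as control that after atrophy (0.0592). The left limb was the lower in 9 of 9 TTX animals and in 1 of 3 sham animals.

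Acvr2a, the other type II receptor, was at 1.75 to 4.82 CPM in control limbs and at 1.62 to 5.54 CPM in the 9 treated limbs. None of its log2 fold changes of 0.40, 0.02 and 0.24 passed (adjusted p = 0.285, 0.976 and 0.517). In the same sequence, 95% confidence intervals ran from −0.15 to 0.94, from −0.53 to 0.56 and from −0.30 to 0.79.

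Smad3 (chr8:64126829-64236961, rn7, minus strand), the effector below these receptors, rose after the first period of disuse in CPM. It was at 102 to 159 CPM in control limbs, with a median of 129, and at 199, 188 and 323 CPM after atrophy, above every control limb. In the sham limbs it was 65.7, 169 and 186 CPM on the left and 90.3, 188 and 171 on the right, so that 4 of these 6 limbs, without TTX, also lay above the control range and overlapped with the atrophy limbs. The recovery limbs held 86.8, 91.2 and 104 CPM and the repeated atrophy limbs 249, 112 and 98.6. In the last group 1 limb stood above all control limbs, 1 lay inside their range and 1 lay below it, and 2 of the 3 recovery limbs lay below it.

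The log2 fold change of Smad3 after atrophy was 0.87 (SE 0.228, adjusted p = 0.0144). It was lost after rescaling (0.50, adjusted p = 0.219), under the block (0.97, adjusted p = 0.166), and without atrophy animal 1 (0.93, adjusted p = 0.134, with 1 row called in all) or atrophy animal 3 (0.63, adjusted p = 0.109). From atrophy to recovery Smad3 fell by 1.28 on the log2 scale (adjusted p = 0.00906), and this was lost after rescaling (adjusted p = 0.0580), under the block (adjusted p = 0.487) and, by a small margin, without recovery animal 2 (adjusted p = 0.0503). After recovery and repeated atrophy its fold changes against control were −0.42 (adjusted p = 0.270) and 0.16 (adjusted p = 0.653). Within animals, the left limb was higher in 3 of 3 atrophy animals and lower in 3 of 3 recovery animals. The rows most like Smad3 were Slc3a2, the heavy chain of amino acid transporters (r = 0.835), Alg2 (0.824) and Atp6v1b2 (0.808).

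Smad7 ranged from 6.49 to 17.7 CPM in control limbs, from 9.30 to 14.6 after atrophy, from 7.45 to 9.77 after recovery and from 12.5 to 17.1 after repeated atrophy, all inside the control range. Its log2 fold changes of 0.18, −0.33 and 0.38 did not pass (adjusted p = 0.665, 0.448 and 0.279). In the sham limbs it was 10.8 to 23.2 CPM on the left and 9.15 to 25.4 on the right, and 4 of these 6 limbs lay above every control limb.

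Between the treated groups, recovery against atrophy held 1 member higher (Fstl1) and 2 lower (Fst and Smad3), against 3.34% and 14.5% of all rows. Repeated atrophy against recovery held 1 higher (Fst) and 1 lower (Fstl1), against 21% and 6.29%. These contrasts share limbs with those above.

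Sham surgery was the background for these changes. Between the left sham limbs and the control limbs, 0% of 13822 rows were called by limma (1904 at an unadjusted p under 0.05), and between left and right sham limbs 0% of 13483 (576 at an unadjusted p under 0.05). Without sham animal 2 the first comparison held 118 called rows, 110 of them higher, and without sham animal 3 it held 8. Among the members the widest differences were 0.61 for Smad7 against control (95% confidence interval −0.04 to 1.26, adjusted p = 0.382) and −0.48 for Mstn between the sham limbs (−0.99 to 0.03, adjusted p = 0.936). Fst was at 5.55, 8.94 and 13.3 CPM in the left sham limbs, the last just above the highest control limb at 12.8.

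The left-right difference of the treated animals was also set against that of the sham animals, with the animal as a block. In repeated atrophy animals, 4.36% of rows differed and 1 member did, Fst, by 2.21 (SE 0.573, adjusted p = 0.0494). This call sat at the threshold, since it was lost after rescaling (1.86, adjusted p = 0.0501) and in 9 of 12 fits without an animal (adjusted p up to 0.167), namely each of the 3 sham and 3 repeated atrophy animals, recovery animals 1 and 2 and atrophy animal 3. In these 9 fits the share of all rows called was also lower, at 0% without sham animal 1, sham animal 3 or repeated atrophy animal 2 (2732, 2754 and 2758 rows at an unadjusted p under 0.05 in limma) and at most 2.17% in the others, and it rose to 13.9% without atrophy animal 1. In atrophy and in recovery animals 0% of rows and no member were called, with 1031 and 880 rows at an unadjusted p under 0.05 in limma. The widest member differences there were 1.28 for Fst in atrophy animals (95% confidence interval 0.04 to 2.52, adjusted p = 0.667) and 1.16 for Fstl1 in recovery animals (0.04 to 2.28, adjusted p = 0.795).

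Around these members, 61 further genes of the wider TGF-beta pathway were listed, of which 57 were tested. They were ligands, proteases, binders, receptors, SMADs and their partners, the BMP arm and response genes. The first period of disuse held 10 higher and 0 lower, recovery 3 higher and 1 lower, and the repeated period 15 higher and 3 lower. The shares of all rows called in these comparisons were 20.3% and 2.33%, 4.4% and 3.33%, and 28.1% and 6.24%. Their median log2 fold change was 0.18, 0.05 and 0.23. After rescaling the counts were 4 higher and 2 lower, 4 higher and 1 lower, and 9 higher and 6 lower, and with the animal as a block 0 and 0, 0 and 0, and 11 higher and 5 lower. The rescaled shares of all rows were 4.73% higher and 4.95% lower for atrophy, 6.02% and 6.04% for recovery, and 13.1% and 12.1% for the repeated period. Under the block 21.5% of all rows were higher and 5.66% lower after repeated atrophy.

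**Figure D5:**
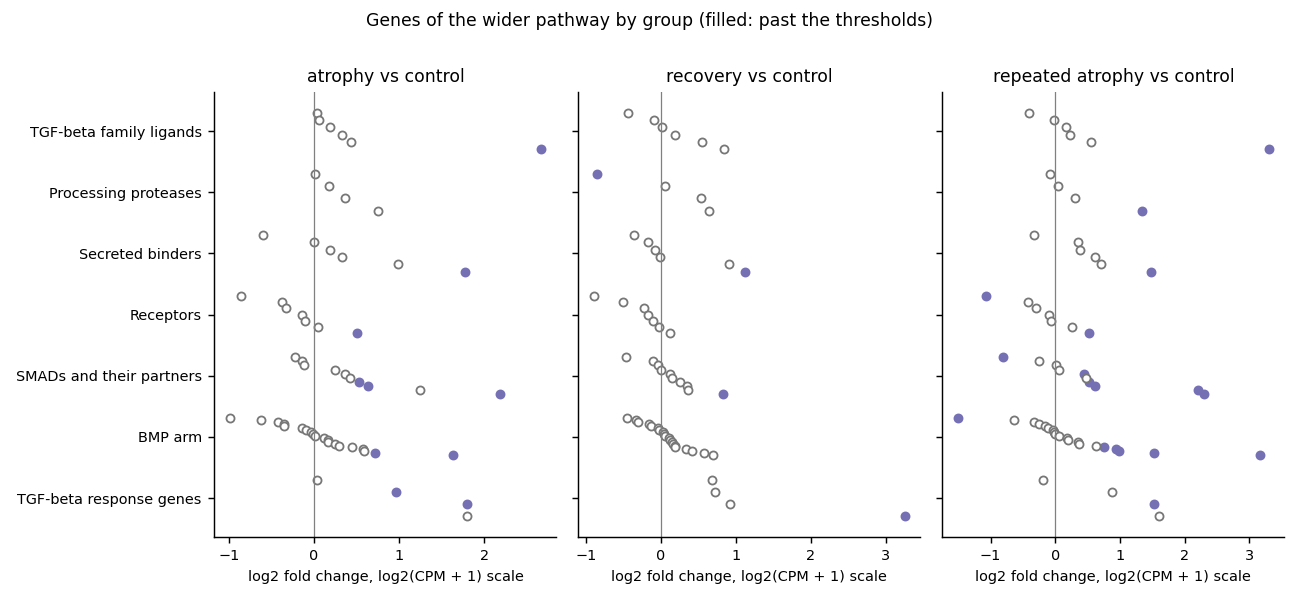
Log2 fold change against control (horizontal axes, log2(CPM + 1) scale) of 57 genes of the wider pathway after atrophy, recovery and repeated atrophy, in 7 groups by role (vertical axis). Filled points passed both thresholds, and the farthest right after repeated atrophy are Tgfb2 at 3.30 and Chrd at 3.16.

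Among 6 other ligands, Tgfb2 was the only one called against control in CPM. It reached at most 32.5 CPM in control limbs and lay between 52.1 and 356 CPM in the atrophy limbs, 33.0 and 69.6 in the recovery limbs and 217 and 271 in the repeated atrophy limbs, with no overlap with control in any of the 3 groups. Its log2 fold change was 2.66 after atrophy (adjusted p = 0.00506) and 3.30 after repeated atrophy (adjusted p = 4.29e-05), and under the block the adjusted p was 0.149 and 0.00351. After recovery it did not pass (0.84, adjusted p = 0.199). Tgfb3, named after its value was seen, was called lower after repeated atrophy with rescaling (−0.78, adjusted p = 0.00586) and not in CPM (−0.41, adjusted p = 0.0759).

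Of 4 proteases that free the ligands from their propeptides or binders, Bmp1 rose after repeated atrophy (log2 fold change 1.34, adjusted p = 0.00346, 28.5 ± 3.27 CPM against 11.1 ± 3.67 in control). Furin, named after its value was seen, fell after recovery by 0.86 on the log2 scale (adjusted p = 0.0381, 0.228 under the block). Of 6 secreted binders tested, Ltbp1, a binder of latent TGF-beta, rose after atrophy (1.77, adjusted p = 0.00626, 0.151 under the block) and repeated atrophy (1.48, adjusted p = 0.00292). Dcn, also named after its value was seen, encodes a matrix proteoglycan that fibroblasts make, and it rose after recovery (1.13, adjusted p = 0.0143, 0.175 under the block), along with the fibroblast markers.

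Among 7 further receptors, the type I receptor Acvr1b fell after repeated atrophy by 1.07 on the log2 scale (adjusted p = 0.0160), from 11.5 to 27.6 CPM in control to 4.56 to 20.1. Tgfbr1 rose after atrophy (0.50, adjusted p = 0.0363) and repeated atrophy (0.52, adjusted p = 0.0212) and passed in neither after rescaling (adjusted p = 0.539 and 0.479). Rescaling also called Acvr1b lower after atrophy (−1.19, adjusted p = 0.0341) and Acvr1, named after its value was seen, lower after repeated atrophy (−0.75, adjusted p = 0.0437). Of 10 SMADs and partners tested, 5 were higher and 1 was lower after repeated atrophy, where 28.1% and 6.24% of all rows were. After rescaling (13.1% and 12.1% of all rows), and likewise under the block (21.5% and 5.66%), 2 were higher and 1 was lower. The largest changes there were Pmepa1, a TGF-beta target that binds SMADs (2.30, adjusted p = 0.00113), Tgif1, a co-repressor (2.21, adjusted p = 0.00241), Wwp1, a ubiquitin ligase (−0.81, adjusted p = 0.00241), and Rnf111 (0.61, adjusted p = 0.0179, 0.357 after rescaling).

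Of 20 genes of the BMP arm, the parallel branch through SMAD1 and SMAD5, 5 were higher and 1 was lower after repeated atrophy (28.1% and 6.24% of all rows). The counts were 3 higher and 2 lower after rescaling (13.1% and 12.1%) and the same under the block (21.5% and 5.66%). Chrd, a BMP antagonist, was at 52.2 to 72.4 CPM against 2.14 to 15.4 in control (3.16, adjusted p = 8.64e-05). The BMP targets Id3 (1.52, adjusted p = 0.000182) and Id1 (0.99, adjusted p = 0.00714, 0.0703 after rescaling) also rose. Of 4 TGF-beta response genes, Ccn2 rose after repeated atrophy (1.52, adjusted p = 0.00219) and after atrophy (0.96, adjusted p = 0.0459), the latter with an adjusted p of 0.203 after rescaling and 0.243 under the block. Postn, named after its value was seen, rose after atrophy (1.80, adjusted p = 0.0261, 0.0732 after rescaling and 0.178 under the block) and after recovery (3.25, adjusted p = 0.00287, 0.113 under the block).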

How the data were processed

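Both tibialis anterior muscles of 12 rats were analysed from 1 deposited table. Per the labels and the methods of the study, the authors removed contaminant reads with Bowtie2 2.2.5, aligned to rn7 with STAR and processed the data in Partek, and DESeq2 was used by them. The deposited values are CPM, since each column sums to 1000000, so the tests for normalized values were used, while median of ratios is the scaling that the methods give. 3 columns matched no sample and were not used. How reads were assigned to genes is not given in the sources used here.

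Of 14271 rows, 28 exact duplicates were dropped. Depth was inferred from the commonest lowest step (18861092 to 30893661 reads), and 86.7% to 88.2% of values under 1 CPM were whole multiples of it within 0.02 steps, so reads were not treated as recovered and no count test was run. Rows above 0 in at least 3 limbs fitted were tested with limma 3.58.1 (R 4.3.3) on log2(CPM + 1) with an intensity trend, all groups of the 18 limbs in 1 fit. Thresholds were a fold change of 1.2 and 0.05 for p after Benjamini-Hochberg adjustment over all rows. The code was tested on simulated data. Pseudocounts of 0.1 and 10, other scalings, filters, the animal as a block or random effect, 12 right limbs as control and leaving out each animal were alternatives.

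Labels give both limbs of each rat, which is where the pairing comes from. The deviations of the limbs of a rat correlated at a mean of r = 0.118 in the 9 TTX animals (over 0.1 in 4, negative in 3) and 0.745 in the 3 sham animals. Members and lists were chosen with earlier results of these data known. Named genes were all members, up to 4 called pathway genes per group after repeated atrophy, and, for members with a mean of at least 1 CPM, the 3 most alike rows with a mean of at least 10 CPM. Wfikkn2, Ski, Skil and Gdf5 were not used here. 1 pathway gene that the rule would name is not reported here.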

Additional observations from a re-analysis of the deposited data

Results flagged for a closer look

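In the 9 control limbs, 1 limb stood apart from the others for Inhba: the gap between the highest limb and the rest was the whole range of the group (ratio of gap to range 1), since 8 limbs were at 0 and 1 was at 0.104 CPM. Of the 10 members examined this way, Inhba was the only one flagged. Chance flags about 1 in 20 groups of continuous values, a rate that does not hold here, since with 8 limbs at 0 any value above 0 in the other limb gives this ratio.

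The left-right difference of Fst was larger in repeated atrophy animals than in sham animals, by 2.21 on the log2(CPM + 1) scale (SE 0.573, limma adjusted p = 0.0494). This call held in 3 of 5 alternatives that kept every animal and in 3 of 12 that left an animal out. The left limb was higher in 3 of 3 repeated atrophy animals, by a mean of 2.53, and in 2 of 3 sham animals, by a mean of 0.33.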

How the results depend on the processing

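Fst after repeated atrophy passed against control in all alternatives run. The replicate block set the numbers of members called to 0 after atrophy, after recovery, for recovery against atrophy and for repeated atrophy against recovery, with or without rescaling; the rescaled block was added after seeing the data. After repeated atrophy 3 members were called with the block and 3 without it, of which Fst and Acvr2b were shared. The cause of these changes was not tested. After recovery 1 member was called with a pseudocount of 10 and 1 with a mean of at least 10 CPM, and after repeated atrophy 1 with that filter, which removes Mstn, Gdf11, Inhba, Fstl3, Acvr2a and Acvr2b from the test. In repeated atrophy against sham animals 0 were called after rescaling and 0 without a filter. Leaving out an animal gave 0 to 3 members after atrophy, 0 to 2 after recovery and 2 to 4 after repeated atrophy. It gave 0 to 3 for recovery against atrophy, 1 to 2 for repeated atrophy against recovery and 0 to 1 for repeated atrophy against sham animals.

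Members that were not called changed sign in some fits, given here as log2 fold changes. After atrophy these were Mstn with a pseudocount of 10 (0.00091) and the block (0.035), Gdf11 rescaled by trimmed means (−0.23) or by the median of ratios (−0.24), Fstl1 with the block (0.22), Acvr2a with the rescaled block (−0.10), and Smad7 rescaled (−0.16), by the median of ratios (−0.17) and with the rescaled block (−0.16). After recovery they were Gdf11 with the block (−0.057) and the rescaled block (−0.17), Acvr2a against 12 right limbs (−0.11) and with the rescaled block (−0.063), and Smad7 with the block (0.13) and the rescaled block (0.0099). After repeated atrophy they were Acvr2a rescaled (−0.053) or by the median of ratios (−0.057), Smad3 rescaled (−0.22), by the median of ratios (−0.23) and with the rescaled block (−0.11), and Smad7 with the rescaled block (−0.34). Without an animal each, Mstn ran from −0.20 to 0.27, Gdf11 from −0.12 to 0.27 and Fstl1 from −0.52 to 0.055 after atrophy, Fst from −0.077 to 0.32 and Acvr2a from −0.29 to 0.32 after recovery, and Fstl1 from −0.48 to 0.40 and Smad3 from −0.29 to 0.43 after repeated atrophy. A random effect for sham left against control was not run, since no animal gave both limbs. Acvr2b, Fstl3 and Inhba rest on few reads, which limits their precision.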
